A study of Mus musculus with 8 samples.

Results

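The genes described here are the 70 histone cluster genes of the mouse, taken as every row whose symbol starts with Hist1h, Hist2h, Hist3h or Hist4h among the 55536 gene rows of the count table. By symbol they comprised 6 genes for the linker histone H1, 20 for H2A, 19 for H2B, 12 for H3 and 13 for H4. Of these, 3 are annotated as pseudogenes: Hist1h2al and Hist1h2aj of H2A, and Hist3h2bb-ps of H2B. The gene family was picked after differences between mutants and controls in these same libraries had been seen, so those differences are given below as a description and were not tested over the family. RNA was sequenced from the posterior, non-elevated palatal shelves of E14.5 embryos, left and right shelf together and with epithelium and mesenchyme unseparated. The mutants (4 libraries) were Yapfl/fl;Tazfl/fl;Col2Cre embryos, in which both alleles of Yap and of Taz carry loxP sites and Cre recombinase is driven by regulatory sequence of the cartilage collagen gene Col2a1. The controls (4 libraries) carried the same floxed alleles without Cre. Which embryo or embryos each library came from was not labelled, so the spread given is that between these libraries and may be technical.

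Histones package DNA: pairs of H2A, H2B, H3 and H4 form the core of the nucleosome, and H1 binds the DNA that enters and leaves it. The cluster genes are transcribed mainly in S phase, when newly copied DNA needs new nucleosomes, and most of their mRNAs end in a conserved stem-loop in place of a poly(A) tail. The stem-loop is bound by SLBP, which guides 3′ end cutting, translation and decay, while NPAT gathers at the clusters and promotes their transcription. Histones of another kind, the replacement histones, are mostly encoded by single genes with polyadenylated mRNAs, and many are made through the whole cell cycle. Growing tissue such as the palatal shelf holds many cells in S phase.

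The stem-loop is shown first because it is the feature that sets these mRNAs apart. The pattern of the stem-loop (GG, any 2 bases, CTTTT, any 1 base, AG, any 2 bases, CC) was sought in the GENCODE M21 transcripts of GRCm38. It was found on the transcript strand in 43 of the 70 genes (61.4%) and in 39 of 55380 other genes (0.0704%). For other genes the longest transcript was taken. For members it was the longest with a coding sequence, or the longest where none had one. Allowing 1 mismatch gave 45 of the 70. Of the 24 protein-coding members without a match, 15 have an annotated transcript that runs under 20 bases past the stop codon, so the place where the letters would stand is not in the annotation. The match began 21 to 58 bases after the stop codon, with a median of 31. The capitals below mark the stem-loop, and the 5 bases on either side are in lower case.
Hist1h1e (H1), chr13:23621777-23621802, minus strand: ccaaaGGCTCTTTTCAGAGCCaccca
Hist1h2bg (H2B), chr13:23571838-23571863, plus strand: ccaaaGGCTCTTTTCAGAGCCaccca
Hist1h3e (H3), chr13:23561898-23561923, minus strand: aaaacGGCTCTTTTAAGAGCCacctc
Hist1h4d (H4), chr13:23581945-23581970, plus strand: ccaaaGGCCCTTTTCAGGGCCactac
Hist1h4i (H4), chr13:22040961-22040986, minus strand: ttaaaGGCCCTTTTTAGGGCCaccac
Hist1h4b (H4), chr13:23757361-23757386, plus strand: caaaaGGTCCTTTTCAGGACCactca
The 26 bases around the stem-loop are identical in Hist1h1e and Hist1h2bg, genes for different histones. The form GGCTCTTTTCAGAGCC stood in 25 members (3 of H1, 10 of H2A, 7 of H2B and 5 of H3), and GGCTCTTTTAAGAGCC in 6 members (1 of H1, 2 of H2B and 3 of H3). H4 genes held other stems, with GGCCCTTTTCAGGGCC in 7, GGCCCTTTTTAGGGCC in 2 and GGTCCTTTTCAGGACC in 2. No H4 gene had the stem of the other classes, and no gene of the other classes had an H4 stem.

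The promoters differ by class as well, and 1 is shown for each class. RefSeq (GRCm38.p6) gave a promoter for 62 members, and each was searched from 250 bases before to 50 after the start, on both strands, for 4 letter strings: CCAAT, the letters of the CCAAT box; TATAAA, those of the TATA box; ATTTGCAT, the octamer read by POU factors and known from H2B promoters; and AAACACA, known from H1 promoters. The searched strings do not contain one another. The 150 bases before each start are printed on the strand of the gene, with matches in capitals; ATTGG and ATGCAAAT are the reverse complements of CCAAT and ATTTGCAT.
Hist1h1e (H1), chr13:23622559-23622708, minus strand: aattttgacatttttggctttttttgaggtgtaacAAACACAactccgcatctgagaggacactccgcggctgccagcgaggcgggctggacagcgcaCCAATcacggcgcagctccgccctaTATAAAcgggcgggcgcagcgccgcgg
Hist1h2ac (H2A), chr13:23683960-23684109, minus strand: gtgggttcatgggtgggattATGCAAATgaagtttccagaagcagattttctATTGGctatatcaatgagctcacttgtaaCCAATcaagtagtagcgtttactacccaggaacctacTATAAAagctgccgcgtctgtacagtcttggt
Hist1h2bb (H2B), chr13:23746584-23746733, plus strand: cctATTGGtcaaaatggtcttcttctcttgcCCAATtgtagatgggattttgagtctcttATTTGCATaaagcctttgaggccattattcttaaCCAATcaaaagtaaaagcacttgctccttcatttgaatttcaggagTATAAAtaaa
Hist1h3e (H3), chr13:23562386-23562535, minus strand: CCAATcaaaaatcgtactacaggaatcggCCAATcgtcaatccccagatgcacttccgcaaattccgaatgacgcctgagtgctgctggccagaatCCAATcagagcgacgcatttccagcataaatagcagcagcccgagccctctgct
Hist1h4d (H4), chr13:23581418-23581567, plus strand: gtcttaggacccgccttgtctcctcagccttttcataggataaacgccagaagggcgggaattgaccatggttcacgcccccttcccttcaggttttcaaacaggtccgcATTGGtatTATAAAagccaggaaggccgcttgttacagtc
CCAAT stood in 53 of the 62 promoters (85.5%) against 10157 of 26963 other genes (37.7%). It was present in all 6 H1, 18 H2A, 16 H2B and 10 H3 promoters, but in 3 of 12 H4 promoters. TATAAA stood in 35 members (56.5%) against 14.04% of other genes, and its forward matches had a median position of -32 from the start. ATTTGCAT stood in 13 members, 7 of H2A and 6 of H2B, and in no H1, H3 or H4 promoter, against 1.69% of other genes. Many H2A and H2B genes lie head to head, so the same bases can fall in both windows. AAACACA stood in 5 of 6 H1 promoters, 2 H2A and 2 H2B promoters, against 7.23% of other genes. These matches describe letters only.

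In the recovered reads the libraries held between 29025089 and 32437977 reads each. Yap1 had 8463 ± 277 normalised counts in mutants and 9610 ± 429 in controls (SD, n = 4 each), a log2 difference of -0.18. Wwtr1, the gene for Taz, had 4007 ± 397 in mutants and 4879 ± 352 in controls, a log2 difference of -0.29. Neither passed limma's test (adjusted p = 0.751 for both), and whole-gene counts do not show which exons were deleted or in which cells. Over the 16647 genes tested the median log2 difference was -0.000147, and 4 genes were called, all lower in mutants.

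Summed over all 70 genes, histone cluster RNA was lower in every mutant library than in any control library. The sums were 1785, 2193, 2082 and 1799 normalised counts in mutants 1 to 4, against 2961, 2894, 2557 and 3187 in controls 1 to 4. The means were 1965 ± 204 in mutants and 2900 ± 261 in controls (SD, n = 4 each), a ratio of 0.678. The 4 control sums and the 4 mutant sums did not overlap, the nearest being control 3 and mutant 2. Of every 1000000 reads the family took 59.7 to 74.2 in mutants and 79.7 to 103 in controls. In such bulk tissue, fewer cells that express these genes and less histone RNA per cell cannot be told apart. In the same libraries 28 genes of S phase and DNA replication summed to 79710 to 82209 normalised counts in mutants and 76959 to 80565 in controls. The sample titles open with a number whose meaning the labels do not give. Among libraries with 2057 the sum was 1799 in the mutant and 3041 in the mean of the controls, and among those with 3602 it was 2138 in the mean of the mutants and 2557 in the control.

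**Figure D1:**
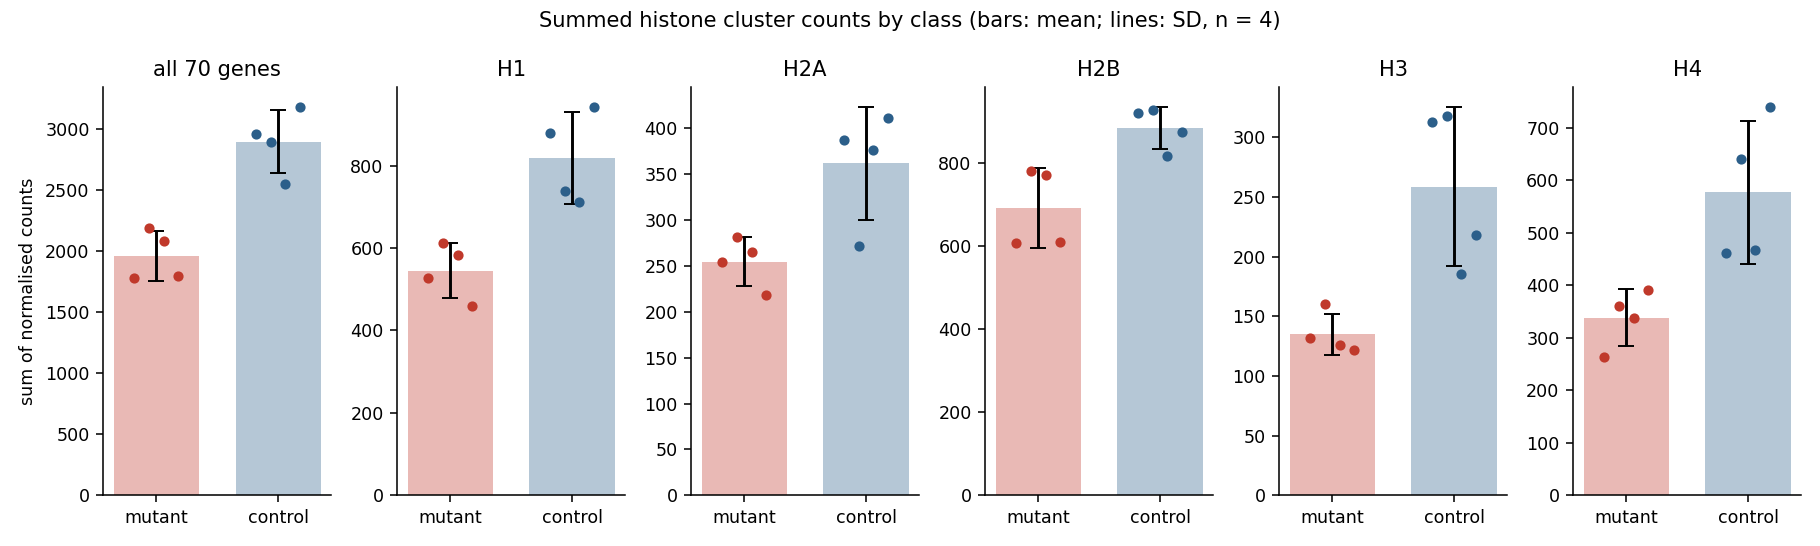
Summed normalised counts of all 70 histone cluster genes and of each class, in mutant (left) and control (right) libraries; points are libraries, bars the means and lines the SD (n = 4 each). The sums of all genes lie at 1785 to 2193 in mutants and 2557 to 3187 in controls, and H2A is the class in which the groups overlap.

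The ratio of the mutant to the control sum was lowest for H3, at 0.522, followed by H4 at 0.587, H1 at 0.666, H2A at 0.704 and H2B at 0.782. The H3 genes summed to 121 to 160 normalised counts in mutants and 186 to 318 in controls, and the H4 genes to 265 to 391 in mutants and 462 to 741 in controls. The H2A sums overlapped, at 219 to 281 in mutants and 271 to 412 in controls, and in the other 4 classes they did not. As shares of the family, H2B genes gave 35.2% of the histone sum in mutants and 30.5% in controls, H1 genes 27.7% in mutants and 28.2% in controls, and H3 genes 6.87% in mutants and 8.92% in controls. Differences between the class ratios were not tested.

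Among the H1 genes, Hist1h1e, a linker histone gene expressed in most somatic cells, stood out by its small spread within each group. It lies at chr13:23620629-23622558 on the minus strand and had 87.5, 104.1, 104.2 and 87.0 normalised counts in mutants 1 to 4, against 189.5, 234.3, 177.5 and 208.2 in controls 1 to 4. Every mutant was below every control, and the means were 95.7 ± 9.76 in mutants and 202 ± 24.7 in controls (SD, n = 4 each), a log2 difference of -1.07 (SE 0.19). An exon of Hist1h2be lies over it on the same strand, and 32.0% of its 50-base stretches occur in other genes, so part of its reads may belong elsewhere. Hist1h1c, the H1 gene with the most reads, had 334.5, 323.7, 345.4 and 271.1 normalised counts in mutants, against 477.0, 288.9, 256.5 and 356.5 in controls, and the groups overlapped. Its log2 difference was -0.08 (SE 0.19), and it was positive in 2 of 18 alternatives, 1 of them without control 1.

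Of the other H1 genes, Hist1h1a and Hist1h1b share none of their 50-base stretches with another gene, so their reads are the least uncertain. Hist1h1a had 51.5, 43.5, 56.0 and 28.3 normalised counts in mutants and 54.3, 90.8, 101.6 and 136.5 in controls, a log2 difference of -1.05 (SE 0.36). Hist1h1b had 43.8, 66.3, 33.8 and 45.5 in mutants and 49.0, 70.3, 112.9 and 127.7 in controls, a log2 difference of -0.86 (SE 0.37). In both genes control 1 lay within the range of the mutants and the other 3 controls lay above it. Hist1h1d ranged from 10.7 to 74.8 in mutants and from 54.7 to 113.9 in controls, a log2 difference of -1.31 (SE 0.52). The testis gene Hist1h1t had means of 0.725 in mutants and 5.05 in controls and did not pass the filter on low counts.

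The H2A genes had low counts throughout. Hist3h2a, the H2A gene with the most reads, had 60.3, 120.2, 84.9 and 67.8 normalised counts in mutants and 100.1, 74.2, 90.3 and 106.1 in controls, with overlap and a log2 difference of -0.19 (SE 0.28). Hist1h2ak had 21.4, 35, 28.0 and 19.2 in mutants and 55.4, 38.1, 84.1 and 47.1 in controls, with every mutant below every control and a log2 difference of -1.06 (SE 0.39). Hist1h2af had 8.8, 0, 9.6 and 6.1 in mutants and 47.9, 26.4, 16.4 and 49.1 in controls, again without overlap. Its log2 difference of -2.66 (SE 0.81) was the lowest of all tested members; the 0 in mutant 2 allows up to 2.84 normalised counts, and 94.0% of its 50-base stretches occur in other genes. Hist1h2ac, Hist1h2ae and Hist1h2ag overlapped between the groups, at log2 differences of -0.70, -0.36 and -0.08, the last of which turned positive in 6 of 17 alternatives. Hist1h2ai had a log2 difference of 0.25 although its means were 18 in mutants and 18.2 in controls, and it was negative in 4 of 17 alternatives.

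In the 3 H2B genes with the most reads the groups overlapped. Hist2h2be, a gene whose product is a variant H2B known from olfactory neurons, had 272.3, 229.0, 286.6 and 248.8 normalised counts in mutants and 324.8, 263.6, 262.6 and 403.6 in controls, a log2 difference of -0.26 (SE 0.17). Hist3h2ba had 143.9, 230.0, 219.0 and 124.4 in mutants and 248.1, 134.7, 190.8 and 164.0 in controls, a log2 difference of -0.05 (SE 0.26) that turned positive without mutant 1, mutant 4 or control 1. Hist1h2bc ranged from 71.0 to 203.5 in mutants and from 132.6 to 196.2 in controls, a log2 difference of -0.36 (SE 0.30). The lowest and the highest library differed among these 3 genes. Per kb of annotated transcript Hist3h2ba had the highest level of the family, 292 normalised counts per kb in mutants and 300.3 in controls, while Hist2h2be had 98.9 in mutants and 120 in controls.

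The H2B genes with fewer reads were further apart. Hist1h2bb had 6.8 normalised counts in mutant 1 and between 13 and 15 in the other 3 mutants, against 34.1, 46.9, 11.3 and 40.3 in controls 1 to 4, with 3 of 4 controls above every mutant and a log2 difference of -1.26 (SE 0.56). Hist1h2bg had 12.6, 24.6, 4.8 and 5.1 in mutants and 41.5, 34.2, 38.0 and 8.8 in controls, a log2 difference of -1.38 (SE 0.68). Hist1h2be differed by -0.01 (SE 0.42) and changed sign in 11 of 17 alternatives, so it had no direction. Its annotated span reaches over Hist1h1e, and it has 13.8 normalised counts per kb in mutants and 13.4 in controls.

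Among the H3 genes, which code for the histone whose tail carries many of the known chromatin marks, no mean in either group reached 70 counts. Hist1h3e had 37.9, 10.4, 15.4 and 20.2 normalised counts in mutants and 62.8, 68.3, 38.0 and 84.5 in controls, a log2 difference of -1.64 (SE 0.46). The groups did not overlap, though mutant 1 and control 3 were within 1 count of each other. Hist2h3b likewise did not overlap, at 17.5, 7.6, 15.4 and 8.1 in mutants and 21.3, 29.3, 18.5 and 23.6 in controls, a log2 difference of -0.94 (SE 0.50); all of its 50-base stretches occur in other genes. Hist1h3a had 23.3, 2.8, 1.9 and 16.2 in mutants and 27.7, 52.7, 18.5 and 33.4 in controls, a log2 difference of -1.95 (SE 0.75). Hist1h3g and Hist1h3c had log2 differences of -0.80 and -0.54, with overlap. Hist1h3d was set by 1 library: it had 1.0 normalised count in control 4 and 29.3 to 31.9 in the other 3 controls, against 11.6 to 29.3 in mutants, and its log2 difference was 0.32 with control 4 and -0.68 without it.

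The H4 genes included 3 without overlap. Hist1h4d had 51.5, 55.8, 68.5 and 48.6 normalised counts in mutants and 85.2, 129.8, 76.9 and 138.5 in controls, a log2 difference of -0.89 (SE 0.29). Hist4h4, which lies alone on chromosome 6 at chr6:136801553-136804415, had 33.1, 34.1, 59.8 and 30.3 in mutants and 60.7, 95.7, 60.5 and 99.2 in controls, a log2 difference of -1.003 (SE 0.34). Hist1h4f had 8.8, 7.6, 24.1 and 8.1 in mutants and 40.5, 80, 39.0 and 44.2 in controls, a log2 difference of -2.08 (SE 0.50). In each of these genes all controls were above all mutants, by less than 1 count at the nearest pair in Hist4h4. Hist1h4n had 1.0, 18, 8.7 and 0 in mutants and 45.8, 46.9, 3.1 and 32.4 in controls, a log2 difference of -2.43 (SE 1.08), with control 3 inside the mutant range. Hist2h4 and Hist1h4h overlapped, at log2 differences of -0.50 and -0.37. Hist1h4i had the largest positive log2 difference of the family, with 23.3, 51.1, 56.9 and 88.0 in mutants and 9.6, 40, 32.8 and 71.7 in controls. Its log2 difference was 0.65 (SE 0.59), which stayed positive in all 17 alternatives run on it while the groups overlapped.

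**Figure D2:**
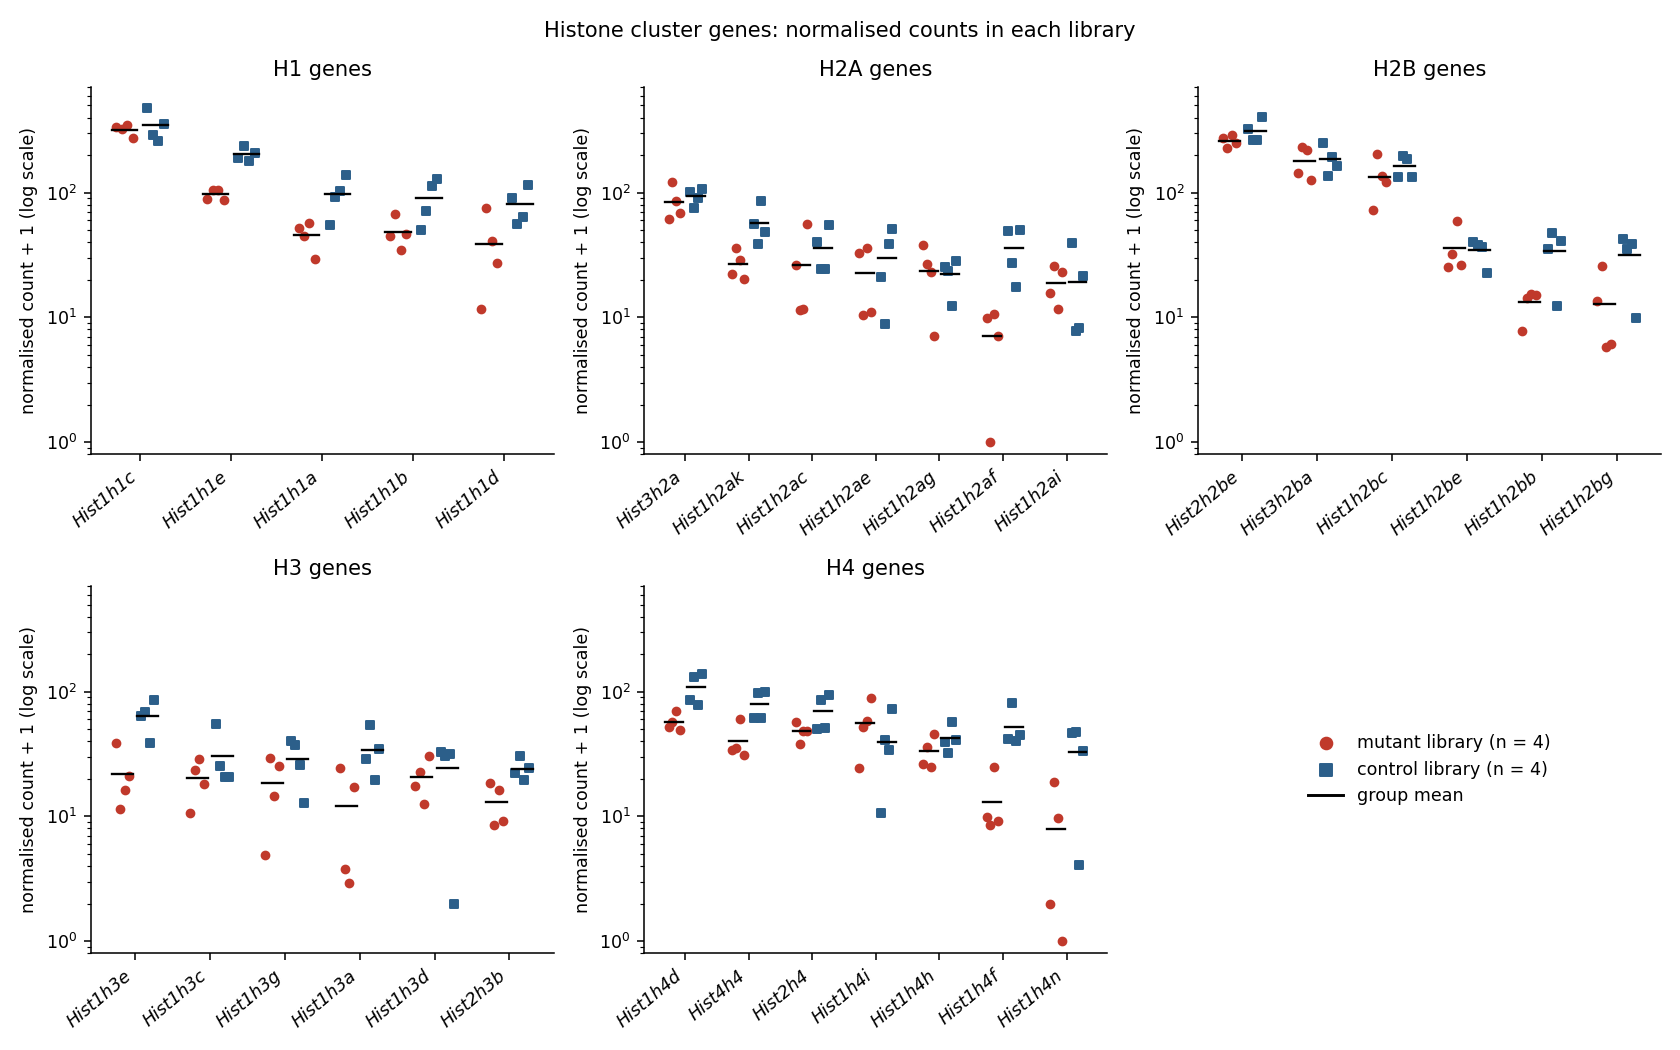
Normalised counts plus 1, on a log axis, of the 31 named histone cluster genes by class; circles are the 4 mutant libraries, squares the 4 control libraries, and lines the group means. Hist1h1e lies at 87.0 to 104.2 in mutants and 177.5 to 234.3 in controls, whereas Hist1h1c and Hist3h2ba overlap.

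Of the 70 genes, 54 had a lower mean in mutants, 8 a higher mean, and 8 were at 0 in all libraries. Those at 0 were Hist2h2aa1, Hist2h2aa2, Hist1h2ao, Hist1h2ap, Hist1h2ba, Hist1h2bq, Hist1h2br and Hist2h3c1. The testis gene Hist1h2ba shares 38.2% of its 50-base stretches with other genes, and the other 7 share 88.5% to 100%. The filter of at least 10 normalised counts in at least 4 libraries was passed by 45 members. Hist1h2af and Hist2h2bb passed it through the controls alone, with no mutant at 10, so counts over the 45 lean toward lower values in mutants. Of the 45, 40 had a negative log2 difference and 5 a positive one, where 8330 of the 16647 genes tested were negative. The median was -0.80, ranging from -2.66 for Hist1h2af to 0.65 for Hist1h4i. Among the positive ones was the pseudogene Hist1h2al, at 0.06. In 9 of the 45 all mutants lay below all controls, against 1.91% of all genes tested, and in 0 all mutants lay above, against 1.86%. Since the family was picked on this contrast, nothing is read from these shares or from those of the calls that follow.

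By class, the negative log2 differences numbered 5 of 5 tested for H1 (median -1.05), 8 of 10 for H2A (-0.44), 10 of 10 for H2B (-0.52), 7 of 8 for H3 (-0.87) and 10 of 12 for H4 (-0.95). The H2A median was -0.14 without mutant 4, -0.27 without control 3 and -0.86 without control 2, and the H2B median was -0.87 without mutant 4 and -0.31 without control 2. The 12 members with a mean of at least 50 were all negative, with a median of -0.68. In no member did limma's test pass its threshold of 0.05 after Benjamini-Hochberg adjustment over all genes, where 0.0240% of all genes were called lower. At an unadjusted p below 0.05 there were 15 members, all lower in mutants, against 3.79% of all genes tested. edgeR called 0 members against 0.0300% of all genes lower, with 10 members at an unadjusted p below 0.05, all lower in mutants, against 3.24% of all genes tested. DESeq2 called 1 member, Hist1h1e, against 0.150% of all genes lower.

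**Figure D3:**
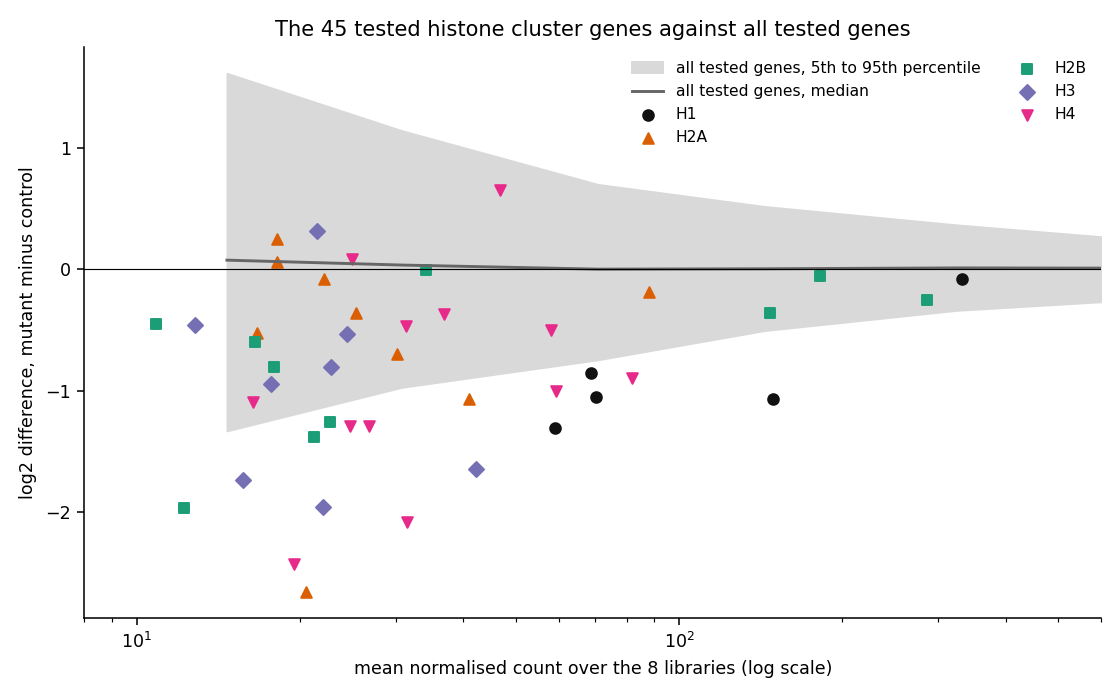
Log2 difference (mutant minus control) of the 45 tested histone cluster genes, by class, against the mean normalised count over the 8 libraries on a log axis; the grey band spans the 5th to 95th percentile of all tested genes at that level and the line their median. H1 genes other than Hist1h1c lie below the band at means of 59 to 149 counts, and Hist1h4i is the highest point, at 0.65.

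The members also differed in how evenly libraries of a group measured them. The coefficient of variation within a group had a median of 48.4% in mutants and 40.7% in controls over the tested members. Hist2h2be, Hist1h1e and Hist1h1c were the steadiest in mutants, at 9.82%, 10.2% and 10.3%. A mean below 30 counts, where counting error weighs most, was found in 25 of the 45. Control 4 was the highest library for 12 of the tested members and control 2 for 11, and mutant 4 was the lowest for 13. No library was lowest or highest for most of the family.

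The 4 members with the most reads were Hist1h1c, Hist2h2be, Hist3h2ba and Hist1h1e, of which only Hist1h1e had groups that did not overlap. They summed to 838, 887, 955 and 731 normalised counts in mutants, against 1239, 922, 887 and 1132 in controls, with overlap and a ratio of 0.816. The other 66 genes summed to 947, 1306, 1127 and 1068 in mutants, against 1722, 1973, 1670 and 2055 in controls, without overlap and at a ratio of 0.600. The share of these 4 genes in the histone sum was 43.4% in mutants and 36.0% in controls. This split was chosen after the values were seen.

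By symbol the members fall in 4 clusters, of which Hist1 on chromosome 13 holds the most. The 24 genes at 21 to 22 Mb summed to 225 to 323 normalised counts in mutants and 372 to 509 in controls, a ratio of 0.613, and the 31 genes at 23 to 24 Mb to 944 to 1181 in mutants and 1411 to 1779 in controls, a ratio of 0.632. The 10 genes of the Hist2 cluster on chromosome 3 had a ratio of 0.759 and the 3 of the Hist3 cluster on chromosome 11 a ratio of 0.951, both with overlap. Hist4h4 had 0.498. Most of the Hist2 and Hist3 sums came from Hist2h2be and Hist3h2ba.

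Members were also grouped by how far the annotated transcript runs past the stem-loop, since a long 3′ end can come from a polyadenylated form of the mRNA. The 21 genes with up to 100 bases after the stem-loop summed to 191 to 203 normalised counts in mutants and 276 to 454 in controls, a ratio of 0.530. The 13 genes with over 100 and up to 1000 bases, Hist1h1c and Hist3h2ba among them, had a ratio of 0.813 with overlap, and the 9 genes with over 1000 bases a ratio of 0.612. The ratios were not in the order of 3′ length. Much of the sum with ratio 0.813 came from Hist1h1c, with means of 319 in mutants and 345 in controls, and Hist3h2ba, with 179 and 184. The part of polyadenylated forms was not tested. Without a match to the stem-loop, 27 genes had a ratio of 0.652.

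Shared sequence limits how reads can be placed, and the counting tool's treatment of such reads was not given in the sources used here. The 4 members with no shared 50-base stretch, Hist1h1a, Hist1h1b, Hist1h1t and Hist2h2be, summed to 368, 339, 379 and 323 normalised counts in mutants, against 448, 425, 477 and 668 in controls, a ratio of 0.698 without overlap. The 36 members that share over 50% had a ratio of 0.509. Exons of other genes lie over 26 members, 23 of them on the opposite strand and mostly H2A genes. Without a stated strand setting, reads of such pairs cannot be told apart. By promoter letters, members with CCAAT had a median log2 difference of -0.80 (31 tested) and those without it -1.05 (8 tested), and members with ATTTGCAT had -0.70 (9 tested) and those without it -0.87 (30 tested). With TATAAA the median was -1.05 (21 tested) and without it -0.70 (18 tested), and with AAACACA it was -0.73 (6 tested) and without it -0.89 (33 tested).

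Genes around histone supply were taken from lists, and none of them passed limma's test over all genes. Among 11 replacement histone genes, 4 had a lower and 7 a higher log2 level in mutants. Their median log2 difference was 0.09. H3f3b, which encodes the replacement histone H3.3, had 14872 ± 1163 normalised counts in mutants and 14868 ± 567 in controls (SD, n = 4 each), a log2 difference of -0.0020 (SE 0.06). H1f0, the linker histone of resting cells, differed by -0.04 and H2afx, which marks DNA breaks when phosphorylated, by 0.02. In H2afv, H2afj and H1fx every mutant was above every control, at log2 differences of 0.17, 0.24 and 0.11. Among 19 genes for transcription and processing of histone mRNA, 9 were lower and 10 higher with a median of 0.00. Slbp had 2837, 2546, 2944 and 3043 in mutants and 2844, 2687, 2732 and 2918 in controls, a log2 difference of 0.02, and Npat differed by 0.01. Of 16 histone chaperone genes 8 were lower and 8 higher, including Ssrp1, Nasp, Atrx and Supt16.

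Markers of the cell cycle were close to level. Among 28 genes of S phase and DNA replication, 9 were lower and 19 higher, with a median log2 difference of 0.05. Their lowest log2 difference was -0.09 and their highest 0.23. Among 24 genes of G2 and mitosis, 15 were lower and 9 higher, with a median of -0.01, and none of either list passed limma's test over all genes. In the TMM and upper-quartile alternatives, the already normalised counts were divided again, by library sizes of the recovered reads. This further division moved the median of all genes to -0.05 and -0.06. The S phase median was then 8.2e-05 and -0.0054, and these values do not show what either scaling gives by itself.

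**Figure D4:**
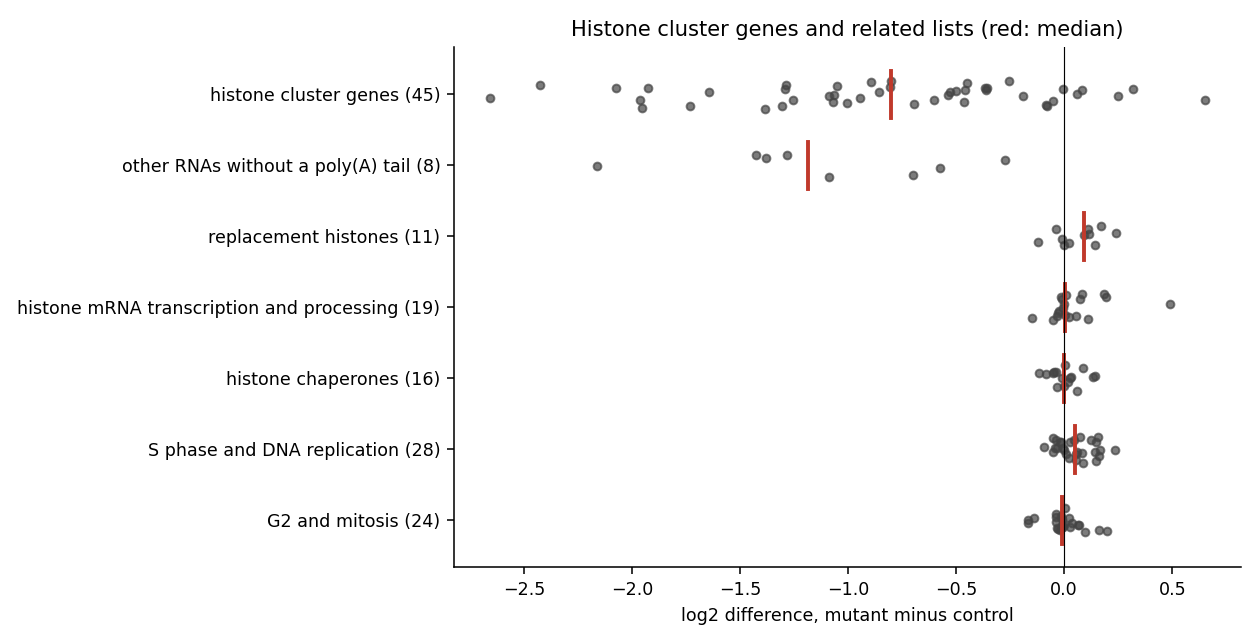
Log2 differences (mutant minus control) of the 45 tested histone cluster genes and of 6 related lists, 1 point per tested gene, with the number of genes in brackets and the median of each list in red. The medians are -0.80 for the histone cluster genes, -1.19 for other RNAs without a poly(A) tail, and between -0.01 and 0.09 for the remaining lists. The lists were written with earlier results of these data known.

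A list of 15 other RNA genes whose RNAs lack a poly(A) tail, or lack it in part, was set beside the histone genes. All 8 that passed the filter had a negative log2 difference, with a median of -1.19, and in 6 every mutant was below every control, against 1.91% of all genes tested. The list was written with earlier results of these data known, and it holds 3 of the 4 genes called over all genes. Nothing is therefore read from its direction or from this share. Gm42418, a noncoding gene model that lies opposite the annotated ribosomal RNA gene CT010467.1, took 2.48%, 2.06%, 2.23% and 1.56% of the reads in mutants 1 to 4, against 5.07%, 5.66%, 4.22% and 5.45% in controls 1 to 4. Its log2 difference was -1.38 (limma adjusted p = 0.0156), and CT010467.1 and Gm23935, the second annotated as a microRNA gene, differed by -1.28 and -1.09 at the same adjusted p. Reads of Gm42418 and CT010467.1 cannot be told apart without strand. Rn7sk, the RNA that holds the elongation factor P-TEFb inactive, had 312.1, 283.0, 319.4 and 216.5 normalised counts in mutants and 812.5, 860.0, 486.3 and 946.7 in controls, a log2 difference of -1.43 (limma adjusted p = 0.0536). Scarna2, a guide RNA of Cajal bodies, differed by -2.16, and Malat1, a nuclear RNA whose 3′ end is cut by RNase P, by -0.70. Rny3 and Neat1 were lower with overlap. Without control 2 or without control 4 these 3 genes no longer passed limma's test.

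**Figure D5:**
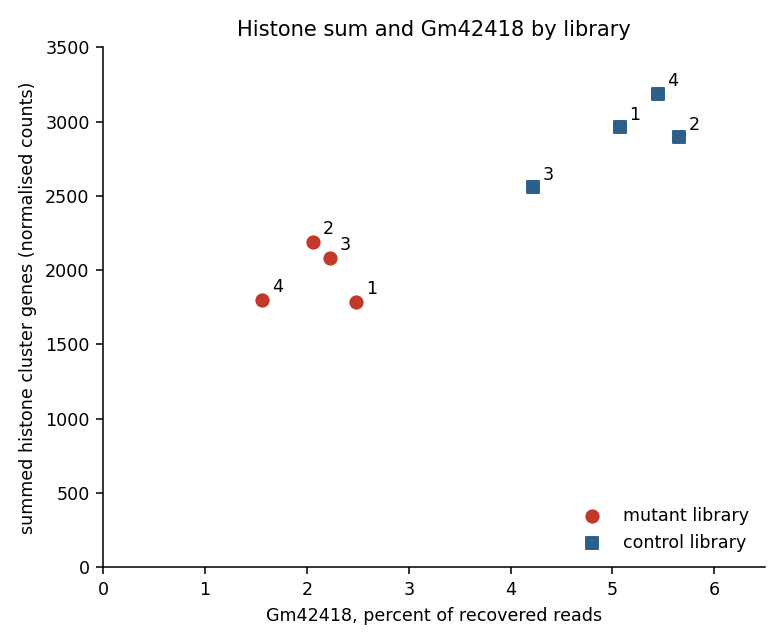
Summed normalised counts of the 70 histone cluster genes (vertical axis) against the percent of recovered reads on Gm42418 (horizontal axis), with libraries numbered; circles are mutants and squares controls. Mutants lie at 1.56% to 2.48% and 1785 to 2193 counts and controls at 4.22% to 5.66% and 2557 to 3187 counts, so the groups separate on both axes.

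Between the groups, the libraries low in histone RNA were also those low in Gm42418. Within the groups the order was not the same throughout. Mutant 1 had the highest Gm42418 share of the mutants, 2.48%, and their lowest histone sum, 1785. Control 3 was the lowest control in both, at 4.22% and 2557. The part of Gm42418 in the histone result was not tested. The library kit, and whether it selected poly(A) or removed ribosomal RNA, was not given in the sources used here. In the marker lists for cells of the dissected tissue, no gene passed limma's test over all genes. Epithelium markers were higher in mutants in 8 of 8 genes, with sums of 28186 to 51762 normalised counts in mutants and 25499 to 37013 in controls. Endothelium markers were lower in 5 of 5, at 10174 to 13310 in mutants and 13723 to 15173 in controls. Osteoblast markers were lower in 5 of 5 tested, at 5899 to 20155 in mutants and 21397 to 39876 in controls, with Bglap at 0 in all libraries. Among them only Ibsp had groups that did not overlap, with means of 2582 in mutants and 16656 in controls, and it sets the gap between these sums. Erythroid markers were higher in 6 of 6, at 15738 to 41689 in mutants and 19095 to 23316 in controls, and glia markers in 4 of 4, at 2794 to 5152 in mutants and 2633 to 3099 in controls. Mesenchyme markers were lower in 4 and higher in 4, at 309797 to 397167 in mutants and 359023 to 459948 in controls. Most of these sums came from Col1a1, with means of 152026 in mutants and 193799 in controls, and Col3a1, with 148124 and 145510. Muscle markers were lower in 2 of 4 and macrophage markers higher in 4 of 4. Their part in the histone result was not tested.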

How the data were processed

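Reads were aligned with STAR 2.7.2 and processed with DESeq2, per the submitters' processing notes; the sources used here give no counting tool, strand setting or genome build. The deposited signal values are normalised counts, gene read counts that the authors divided by 1 size factor per library. In every library 100% of values between 50 and 5000 became whole reads within 0.06 reads, where rounding alone gives 12%. The authors also deposited log2-scale variance-stabilised values, used in 1 alternative. Starts and ends of all 70 members equalled those of GENCODE M21 on GRCm38, whose exons, transcripts and coordinates were used.

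Genes with at least 10 normalised counts in at least 4 libraries were fitted with limma 3.58.1 (R 4.3.3) on log2(normalised count + 1). The fit had an intensity trend, genotype as the only term, two-sided tests and Benjamini-Hochberg adjustment over all 16647 genes. The added 1 shrinks differences between low counts. However, 1 library near 0 can enlarge the log2 difference of a low gene or turn its sign, as in Hist1h3d. edgeR 4.0.16 and DESeq2 1.42.0 were run on the recovered reads. Members, lists and tests were chosen with earlier results of these data known. A count of 0 allows up to 3 reads, a bound that covers counting error only. The SD given is that between the libraries of a group, and the SE is that of the limma fit. Named members were, per class, up to 6 with the highest mean plus the 3 largest differences in each direction overall; in lists, up to 4 with the highest mean, Slbp, Npat and any that passed; other list genes were named after their values were seen. Shared sequence is the percent of 50-base stretches of a transcript found in any other gene's transcripts on either strand. The fit was tested on simulated data with less spread between libraries than most tested members had, so that test does not cover them.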

Additional observations from a re-analysis of the deposited data

Results flagged for a closer look

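In 6 of the 74 groups of 4 libraries examined, 1 library stood apart from the other 3 by Dixon's criterion, which chance alone passes in about 5% of groups. Hist1h4f was marked in both groups, by mutant 3 at 24.1 normalised counts, where the other mutants had 7.6 to 8.8, and by control 2 at 80, where the other controls had 39.0 to 44.2. Hist4h4 was marked by mutant 3 at 59.8, where the other mutants had 30.3 to 34.1, and Hist1h2bb by mutant 1 at 6.8, where the others had 13.3 or more. In controls, Hist1h3c was marked by control 1 at 54.3, where the others had 19.5 to 24.4, and Hist1h3d by control 4 at 1.0, where the others had 29.3 to 31.9. The marked libraries are 3 controls and 2 mutants.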

How the results depend on the processing

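The median log2 difference of the tested histone cluster genes (-0.80) was negative under all 18 alternatives. It was -0.54 with a pseudocount of 8, -0.65 without the filter, -0.68 for members with a mean of at least 50, -0.67 with the title number as a replicate block, and -0.88 to -0.66 leaving out 1 library. On the authors' variance-stabilised values, which compress low counts by construction, it was -0.072, with -0.16 for H1, -0.041 for H2A, -0.070 for H2B, -0.069 for H3 and -0.091 for H4. A mean of at least 50 left 12 members lower in all, 1 of H2A, 3 of H2B and 3 of H4, and no H3 member. Leaving out 1 library gave -0.86 to -0.14 for H2A and -0.87 to -0.31 for H2B. Of 539 values of single members under alternatives, 524 moved by less than 1 SD and 15 by more, all 15 on the stabilised values. Deviations from the group means were correlated between libraries over all tested genes. Same-number libraries across genotypes had correlations of -0.0077, 0.034, 0.0016 and 0.10, and the other pairs across genotypes had -0.085 to 0.076. These values cannot show whether libraries with the same number share a litter or a batch. With the block, 6 of all genes passed limma's test, against 4 without it, and 9 members had an unadjusted p below 0.05, against 15.

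The TMM and upper-quartile alternatives divided counts that were already normalised, so their values carry the shift of all genes given above. They gave median log2 differences of 0.043 and 0.037 for replacement histones, and -0.049 and -0.054 for chaperones. For S phase genes they gave 8.2e-05 and -0.0054 (14 and 15 lower), and for G2 and mitosis -0.062 and -0.067. The upper-quartile alternative gave -0.053 for the processing list. Leaving out 1 library gave 0.053 to 0.11 (1 to 4 genes lower) for replacement histones and 5 to 9 lower in the processing list. The list of RNAs without a poly(A) tail had -0.81 without the filter and -0.58 on stabilised values. Genes passing the test numbered 7 in both the TMM and the upper-quartile alternative, after that further division, and 28 with DESeq2. Leaving out 1 library gave 0 to 11: 8 without mutant 4, 11 without control 3, and 0 without control 2 or control 4. Low counts limit most members.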
